A study of Mus musculus with 2 samples.

Results

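Among the genes that mark neutrophils, 10 were followed through the Treg libraries of the study, out of 24346 gene symbols listed in each library: Elane, Mpo, Ngp, Camp, Ltf, Lcn2, Csf3r, Retnlg, G0s2 and Cxcr2. They were taken by name, and each had a row in both libraries. The data were bulk RNA-seq of sorted GFP+CD4+ cells of Foxp3-DTR-GFP mice, called FDG mice, in which the endogenous Foxp3 locus drives GFP and the diphtheria toxin receptor, so that GFP marks Tregs. Mice given bleomycin (BLM) were studied on day 15, and GFP+CD4+ cells of 3 mice were pooled into 1 library from spleen and 1 library from lung. According to the methods for this model, age- and sex-matched mice of 10 to 16 weeks received 50 μg of BLM into the trachea. Both libraries carried the same reporter allele and the same treatment, and they differed in tissue. No lineage gate beyond GFP and CD4 is described for this sort. Because each tissue is represented by 1 library, the comparisons rest on no replicates and carry no p-values.

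Neutrophils are short-lived phagocytes that leave the bone marrow with their granule proteins already made. The genes of azurophil granules, such as Elane and Mpo, are transcribed in promyelocytes, and those of specific granules, such as Ngp, Camp and Ltf, in myelocytes and metamyelocytes. Both sets are largely silenced as the cells mature, whereas the receptors for G-CSF and CXC chemokines are kept on mature cells. Tregs are not known for any of these granule proteins, and the source of such transcripts in a sorted pool cannot be read from bulk values. In bulk RNA, fewer cells of a type and less RNA per cell cannot be told apart.

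The 10 genes fell into 2 groups by detection in lung. Of the granule genes, Elane, Mpo, Ngp, Camp and Ltf were detected in splenic Tregs and were listed at 0 in lung Tregs. They are called the 5 granule genes below, although Lcn2 is also a granule gene and was detected in both libraries. The other 5 genes, Lcn2, Csf3r, Retnlg, G0s2 and Cxcr2, were detected in both libraries, with higher FPKM in lung, although Lcn2 differed by less than its counting interval and turned slightly lower under another scaling. The 5 granule genes summed to 73.4 FPKM in spleen, 63.5% of the sum of all 10, whereas the other 5 summed to 42.3 FPKM in spleen and 158.7 in lung. FPKM correct the fragments of a gene for transcript length and sequencing depth, so levels of different genes can be set side by side. The 10 genes together made up 0.0193% of the FPKM sum in spleen and 0.0196% in lung.

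**Figure D1:**
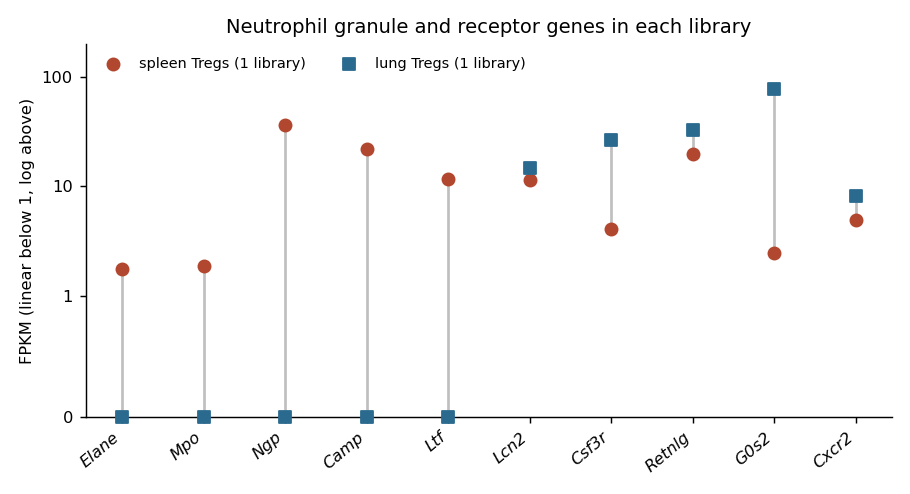
Level of each gene in FPKM (linear below 1, log above) in the splenic library (circles) and the lung library (squares), with 1 library of pooled cells per tissue and no error bars. Elane, Mpo, Ngp, Camp and Ltf were between 1.76 and 36.4 FPKM in spleen and at 0 in lung, and the other 5 genes had higher FPKM in lung, Lcn2 by the least (ratio 1.30, counting interval 0.980 to 1.75).

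The bases before the start of transcription are shown for 6 of the genes. Elane, Ngp, Camp and Ltf stand for the granule genes that were listed at 0 in lung, and Csf3r and G0s2 for the genes with the highest fold in lung. The sequences come from RefSeq on GRCm38.p6, where all 10 genes matched, and run 5′ to 3′ on the strand of the gene. Bases within any GENCODE transcript of the gene were left out, so the stretches differ in length. Capitals mark TTGCNNAA, a form of the motif of C/EBP factors, and GAGGAAG, a form of the motif of PU.1, on either strand. Both are factor families of granulocyte development.

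Elane, chr10:79886062-79886246, plus strand: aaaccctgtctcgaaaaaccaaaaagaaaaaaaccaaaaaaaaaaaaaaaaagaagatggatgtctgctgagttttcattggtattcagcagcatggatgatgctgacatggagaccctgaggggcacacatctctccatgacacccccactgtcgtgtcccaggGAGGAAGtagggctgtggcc
Ngp, chr9:110419558-110419746, plus strand: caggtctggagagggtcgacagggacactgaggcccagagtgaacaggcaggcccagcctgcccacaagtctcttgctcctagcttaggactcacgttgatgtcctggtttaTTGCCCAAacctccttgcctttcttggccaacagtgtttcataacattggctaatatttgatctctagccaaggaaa
Camp, chr9:109849618-109849706, minus strand: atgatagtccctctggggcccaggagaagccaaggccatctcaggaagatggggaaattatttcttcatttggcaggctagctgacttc
Ltf, chr9:111019042-111019270, plus strand: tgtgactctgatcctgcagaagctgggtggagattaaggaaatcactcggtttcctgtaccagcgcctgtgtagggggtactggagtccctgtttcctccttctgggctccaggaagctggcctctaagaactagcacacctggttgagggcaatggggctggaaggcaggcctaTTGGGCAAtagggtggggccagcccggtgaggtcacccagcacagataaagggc
Csf3r, chr4:126024409-126024549, plus strand: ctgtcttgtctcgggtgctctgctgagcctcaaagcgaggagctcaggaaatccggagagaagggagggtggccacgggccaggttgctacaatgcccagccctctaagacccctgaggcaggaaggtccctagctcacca
G0s2, chr1:193273218-193273438, minus strand: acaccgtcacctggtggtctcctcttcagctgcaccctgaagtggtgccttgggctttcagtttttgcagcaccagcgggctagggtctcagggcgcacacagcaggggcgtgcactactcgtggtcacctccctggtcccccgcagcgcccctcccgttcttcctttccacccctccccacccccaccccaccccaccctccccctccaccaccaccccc

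In the 250 bases before the RefSeq start, TTGCNNAA was found in 4 of the 10 genes, Ngp, Ltf, Lcn2 and Retnlg, and in 9.56% of all 32851 RefSeq windows of that length. In Ngp it lay 138 and 11 bases before the start, and in Ltf 75 bases before it. The second of the Ngp matches lies inside a GENCODE transcript and is not printed. GAGGAAG was found in Elane, Mpo, Lcn2 and Csf3r, again 4 of 10, and in 10.6% of all windows. The letters TATAAA were in none of the 10 windows and in 12.4% of all. The GAGGAAG of Csf3r lies 86 bases before the RefSeq start, inside a GENCODE transcript, and is not in the printed stretch. The motifs therefore did not divide the genes in the way the libraries did, and a match is a description of the letters only. The motifs were picked after these windows had been searched with several strings. The counts among the 10 genes therefore cannot be read as an excess over the share of all windows.

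The azurophil granule genes were the weakest of the set in spleen. Elane, which encodes neutrophil elastase and lies on chromosome 10 of GRCm38 from 79886247 to 79888215, was listed at 1.76 FPKM in spleen and at 0 in lung. Mpo, the gene of myeloperoxidase on chromosome 11 from 87793581 to 87804413, was listed at 1.86 FPKM in spleen and at 0 in lung. These values stood for about 14.2 estimated reads of Elane and 48.9 of Mpo in the splenic library. The reads were not counted but estimated from what 1 read was worth among low values. A gene listed at 0 may hold up to 3 estimated reads, a limit for counting error only. That limit is 0.329 FPKM for Elane and 0.1003 FPKM for Mpo, so with the splenic value taken as listed, Elane was at least 5.36-fold and Mpo at least 18.5-fold lower in lung. When the counting error of the splenic reads was included too, in an exact 95% interval, the least folds were 3.77 for Elane and 14.5 for Mpo. Reads of Mpo could also have come from Gm11505, an antisense gene that overlaps it, because the library kit does not mark strand.

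Ngp and Camp, of the specific granules, had the highest splenic levels of the 10 genes, and with Ltf they were listed at 0 in lung. Ngp, the gene of neutrophilic granule protein, was listed at 36.4 FPKM in spleen, above 81.2% of all symbols detected there, and at 0 in lung. Camp, which encodes the cathelicidin precursor, was listed at 21.7 FPKM in spleen and at 0 in lung. Ltf, the gene of the iron-binding protein lactoferrin, was listed at 11.6 FPKM in spleen and at 0 in lung. About 383 reads of Ngp, 124 of Camp and 305 of Ltf were estimated in spleen. With 3 reads allowed in lung and the splenic value as listed, Ngp was at least 145-fold, Ltf at least 115-fold and Camp at least 46.8-fold lower, and with the splenic counting error included the least folds were 117, 93.3 and 37.6. None of the 75-base windows of Ngp, Camp, Ltf or Elane transcripts was shared exactly with a transcript of another gene in GENCODE M21, so no exact copy elsewhere was found for these rows.

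Genes listed at 0 in lung were common at the splenic level of Elane and Mpo, and rare at that of the specific granule genes. Of the 856 protein-coding genes at 1 to 2 FPKM in spleen, 153 were listed at 0 in lung (17.9%), Elane and Mpo among them. Of the 1996 genes at 10 to 20 FPKM, 7 were listed at 0 in lung (0.351%), and Ltf was one of them. The others were Cel, Ctrb1, Elmod3, Hba-a1, Rnase1 and Sycn. Of the 2253 genes at 20 to 50 FPKM, 5 were listed at 0 in lung (0.222%), namely Ngp, Camp, Clps, Pnlip and Prss2. The last 3 are digestive enzyme or cofactor genes of the pancreas. At 100 FPKM or more in spleen, 0 of 890 protein-coding genes were listed at 0 in lung. In the opposite direction, 28 of the 5980 protein-coding genes at 10 FPKM or more in lung were listed at 0 in spleen, and 14 of 6144 the other way, with 3 of the 10 neutrophil genes among these 14.

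**Figure D2:**
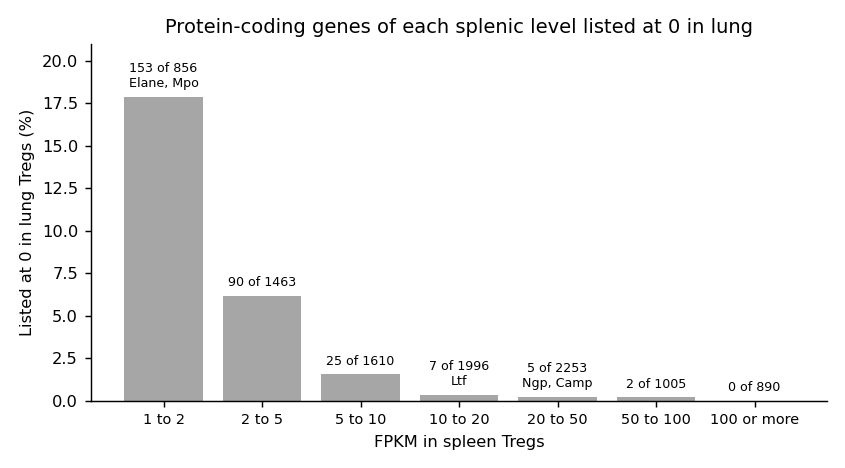
Share of protein-coding genes listed at 0 in lung Tregs (%), by their FPKM in splenic Tregs, with the number of genes above each bar and the granule genes that fall in it. The share was 17.9% at 1 to 2 FPKM, where Elane and Mpo lie, and 0.222% at 20 to 50 FPKM, where Ngp and Camp lie.

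Ngp, Camp and Ltf lie in the same region of the genome, with other genes between them. They lie within 1195 kb of chromosome 9 of GRCm38, from 109847379 to 111042767, with 570.1 kb between Camp and Ngp and 596 kb between Ngp and Ltf. The 27 other protein-coding genes listed in that interval were examined for the same pattern. Of these, 10 were at 5 FPKM or more in spleen, and their log2 ratios of lung to spleen lay between -1.18 and 0.54, with 1 of them, Smarcc1, a chromatin remodelling gene, past 2-fold. Map4, a gene of a microtubule-binding protein, was listed at 23.0 FPKM in spleen and 33.5 in lung. Ccdc12, the highest gene of the interval, was listed at 132 FPKM in spleen and 187 in lung. Map4 lies between Camp and Ngp, and Ccdc12 between Ngp and Ltf, so expressed genes on either side of Ngp were detected in both libraries. At a lower splenic level, Klhl18, the next listed gene after Ngp, was listed at 4.06 FPKM in spleen and 0.668 in lung, whereas Nradd was listed at 1.92 and 8.71. Among the other 27 genes, Tmie (3.25 FPKM in spleen) and Prss50 (0.774 FPKM) were also listed at 0 in lung, and 8 were listed at 0 in both libraries.

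**Figure D3:**
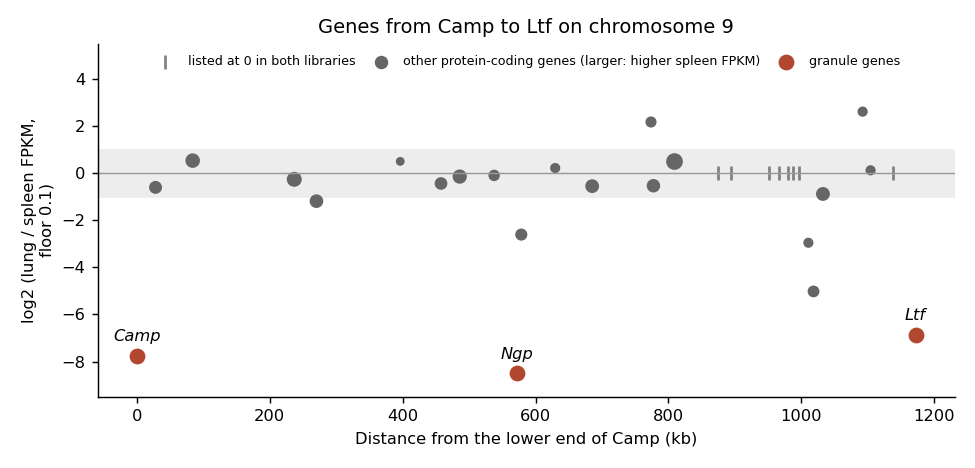
log2 ratio of lung to spleen FPKM, with values under 0.1 set to 0.1, of the 30 protein-coding genes from Camp to Ltf, by distance from Camp in kb. Larger points have a higher splenic level, the grey band covers a change of up to 2-fold, and ticks mark genes listed at 0 in both libraries. Camp, Ngp and Ltf lie between -8.51 and -6.86, below every other gene of the interval.

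Lcn2, another specific granule gene, did not share the zero of Ngp, Camp and Ltf in lung. It encodes lipocalin-2, which binds bacterial siderophores and is also made by epithelial cells and macrophages. It was listed at 11.4 FPKM in spleen and 14.8 in lung, a ratio of 1.30 with a counting interval of 0.980 to 1.75. The interval is the exact 95% interval of estimated reads and covers counting error only, since PCR copies of a molecule were counted separately. Its direction was the least secure of the set, because Lcn2 was slightly lower in lung, with a log2 ratio of -0.06, after both libraries had been rescaled to the same FPKM sum (TPM). In spleen the levels of Lcn2 and Ltf were alike, and in lung Lcn2 was present and Ltf was listed at 0.

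Both receptors were detected in each tissue. Csf3r, the gene of the G-CSF receptor on chromosome 4 from 126024550 to 126044440, was listed at 4.06 FPKM in spleen and 26.4 in lung. It was 6.49-fold higher in lung (counting interval 5.41 to 7.86), on about 131 and 966 estimated reads. Cxcr2, the gene of the receptor for CXCL1, CXCL2 and related chemokines on chromosome 1 from 74153989 to 74161246, was listed at 4.87 FPKM in spleen and 8.06 in lung, a ratio of 1.66 (1.35 to 2.04). Csf3r and Cxcr2 were thus at close levels in spleen, with a ratio of Csf3r to Cxcr2 of 0.834, whereas in lung that ratio was 3.27. Csf3r is also expressed by monocytes and macrophages. Of its 75-base windows, 116 of 3701 were shared exactly with other genes, as were 55 of 3039 windows of Cxcr2.

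Retnlg and G0s2, which are strongly transcribed in mature neutrophils, both stood higher in lung, by very different amounts. Retnlg, a resistin-like secreted protein gene on chromosome 16, was listed at 19.5 FPKM in spleen and 32.7 in lung, a ratio of 1.67 (1.26 to 2.23). Its relative Retnla, a gene of alternatively activated macrophages and epithelium, was listed at 0.495 FPKM in spleen and 874 in lung. No 75-base window was shared exactly between Retnlg and any other gene. G0s2, an inhibitor of the lipase ATGL that is also expressed in adipose tissue and liver, was listed at 2.43 FPKM in spleen and 76.8 in lung. It was 31.6-fold higher in lung (19.2 to 53.6), on about 16.7 and 599 estimated reads, the highest ratio of the 10 genes. G0s2 overlaps Lamb3, which was listed at 0.785 FPKM in spleen and 0.0223 in lung.

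The counts were read against all symbols. With values under 0.1 FPKM set to 0.1, 2 of the 10 genes, Csf3r and G0s2, were over 2-fold higher in lung, against 11.0% of all 24346 symbols and 17.8% of the 12094 symbols that reached 1 FPKM in either library. The 5 granule genes were over 2-fold lower, against 11.7% of all symbols and 15.5% of those at 1 FPKM or more. Past 20-fold, the threshold of the study, G0s2 was higher (1.62% of all symbols, 3.27% at 1 FPKM or more), and Ngp, Camp and Ltf were lower (1.17% of all symbols, 2.35% at 1 FPKM or more). The median log2 ratio of the 10 genes was -1.88, against 0.03 over all symbols at 1 FPKM or more. The 2 groups had been formed by detection in lung, so their separate medians restate that split. The median of the 5 granule genes was -6.86, or -5.55 with 3 reads allowed in lung, and that of the other 5 was 0.74. No gene lay near the median of all 10, since the values ran from -8.51 to -4.14 for the 5 granule genes and from 0.38 to 4.98 for the others. Where neither library was at 0, other scalings moved a log2 ratio by -0.43 (TPM), -0.18 (equal upper quartiles) and 0.13 (equal T cell genes). The genes at 0 in lung moved by another amount because the floor stayed in place, so that Elane was at -4.88 under TPM and unchanged at -4.14 under the other two. Among the 10 genes, only Lcn2 changed its direction, under TPM, where 4 of 10 were higher in lung. Retnlg and Cxcr2 stayed higher under TPM, at log2 ratios of 0.31 and 0.30, which lie below their counting intervals. Csf3r, at 2.27 under TPM, also lay below its counting interval. The size of these differences therefore depended on the scaling, which the counting intervals do not cover.

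Other neutrophil genes were then examined from 4 lists, of which 36 genes were listed. Of the 7 early granulocyte genes, 4 were listed at 0 in lung alone, on at most 6.76 estimated reads in spleen. Ms4a3, Fcnb and Prtn3, genes of granulocyte precursors or their azurophil granules, were listed at 0.723, 0.678 and 0.254 FPKM in spleen and at 0 in lung. The estimated reads behind these splenic values were 6.01, 6.76 and 2.15. With the counting error of both libraries, the least fold was 1.34 for Ms4a3 and 1.64 for Fcnb, so neither was shown to pass 2-fold, and no fold is given for Prtn3. Cebpe, a transcription factor gene of specific granule formation, was listed at 0.0937 FPKM in spleen, about 1.003 reads, and at 0 in lung, and Ctsg was listed at 0 in both. Gfi1, a repressor of granulocyte and lymphocyte development that T cells also express, was level at 17.1 and 17.0 FPKM, and Cebpa was listed at 0.794 and 1.08. Over the 2 genes at 1 FPKM or more, Gfi1 and Cebpa, the median log2 ratio was 0.22.

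Most of the other specific and gelatinase granule genes were, like Lcn2, present in both libraries. Most were also higher in lung, which was not secure for Lcn2. None was at 0 in lung alone, and of 9 listed genes, 6 passed 2-fold upward, 0 downward, with a median log2 ratio of 2.01. Mmp8, the neutrophil collagenase, was listed at 1.12 FPKM in spleen and 8.40 in lung, and Mmp9, the gelatinase, at 4.75 and 13.7. Hp, the gene of haptoglobin, was listed at 8.65 and 95.7 FPKM, 11.1-fold higher in lung. Cybb, a subunit of the phagocyte oxidase that macrophages share, was listed at 23.9 and 95.8 FPKM, and Itgam, the gene of CD11b, at 1.45 and 5.85. Chil1, a chitinase-like protein gene, was listed at 0.521 and 4.25 FPKM. Pglyrp1, a peptidoglycan-binding protein, was the highest of the list and was 1.89-fold higher (95.5 and 181 FPKM). Cd177, a surface protein of neutrophils, was level at 1.69 and 1.49 FPKM, about 44.0 reads in each library, and Olfm4 was listed at 0 in both.

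Genes listed for mature neutrophils were mostly detected in both tissues and mostly higher in lung. Macrophage and monocyte lists were also mostly higher in lung, and which cells gave these transcripts was not tested. Of 12 listed genes, 10 passed 2-fold upward in lung and 1 downward, with a median log2 ratio of 2.33, or 1.996 with genes at 0 set to 3 reads. S100a8 and S100a9, which encode the subunits of calprotectin, were listed at 276 and 120 FPKM in spleen and at 804 and 328 in lung, 2.92-fold and 2.73-fold higher. Their sum in spleen, 396 FPKM, exceeded that of the 5 granule genes, and in lung it was 1133 FPKM while those 5 genes were at 0. Il1b, the interleukin-1β gene, was listed at 23.2 and 485 FPKM, 20.9-fold, and Il1r2, the decoy receptor, at 43.8 and 149. The ratio of lung to spleen was 14.4 for Trem1, 25.4 for Clec4d and 13.6 for Wfdc21, Clec4d on about 4.94 reads in spleen. The stefin gene Stfa2l1 went the other way, at 2.81 FPKM in spleen and 0 in lung, on about 6.14 reads. Its relative BC100530 was at 0 in spleen and 2.19 FPKM in lung. Both share exact windows with other genes, so their rows are uncertain. Ly6g was not analysed here.

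Receptors of the same kind as Csf3r and Cxcr2 all had higher FPKM in lung. Of 8 listed genes, 7 were over 2-fold higher, 0 were lower, and the median log2 ratio was 3.58, or 3.29 with Cxcr1 at 3 reads in spleen. C5ar1, the receptor for C5a, was listed at 2.76 FPKM in spleen and 49.6 in lung, and Ltb4r1, the receptor for leukotriene B4, at 1.63 and 30.0. The formyl peptide receptors Fpr1 and Fpr2 were listed at 5.36 and 0.709 FPKM in spleen and at 13.1 and 9.996 in lung. Csf2ra and Csf2rb, the subunits of the GM-CSF receptor, were 10.2-fold and 9.42-fold higher in lung. Cxcr1, the nearest relative of Cxcr2, was listed at 0 in spleen and 1.58 FPKM in lung, at least 3.63-fold higher by its counting interval. Csf1r, the macrophage receptor, differed least, at 43.8 and 50.1 FPKM. Its log2 ratio of 0.19 was smaller than the shift of -0.43 under TPM, so its direction depended on the scaling.

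**Figure D4:**
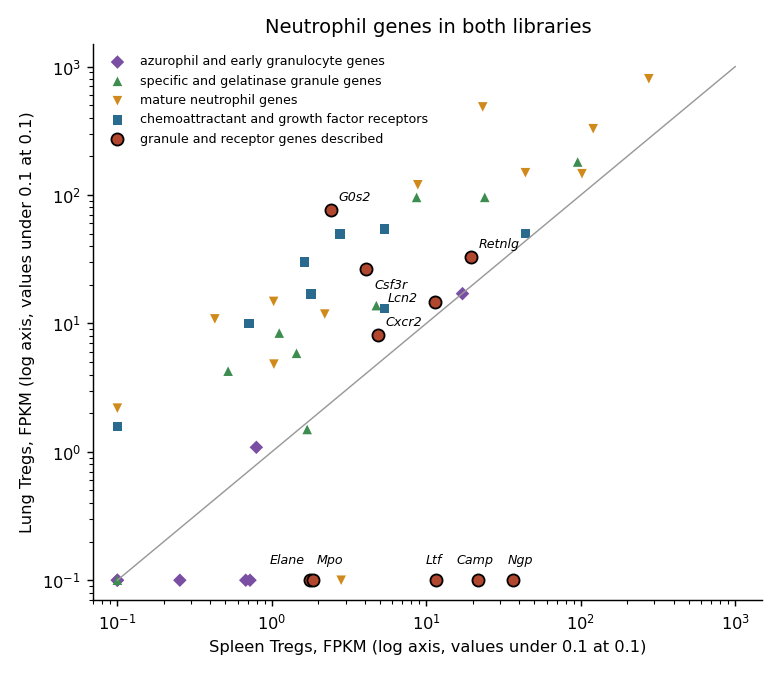
FPKM of each listed neutrophil gene in splenic Tregs (x) and lung Tregs (y), both on log axes with values under 0.1 drawn at 0.1; the line marks equal values and outlined circles are the 10 genes. Elane, Mpo, Ltf, Camp and Ngp lie on the lower edge, at 0 in lung. Of the other 36 genes, 27 were higher in lung, against 7576 of all 24346 symbols, and 7 were lower. Among those 7, 5 were at 0 in lung and lie on the same edge, and 2 of the 36 were at 0 in both libraries.

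Among the ligands of both receptors, the neutrophil chemokine gene Cxcl2 was 18.8-fold higher in lung, at 4.41 and 83.1 FPKM. Cxcl3 was listed at 0 in spleen and 2.62 FPKM in lung, at least 5.54-fold higher by its counting interval. Ppbp, a chemokine gene of platelets and megakaryocytes, was listed at 7.85 FPKM in spleen and at 0 in lung, at least 21.3-fold lower by the same interval. Cxcl1 had 0.260 FPKM in the spleen library and 0 in the lung library, on about 2.01 reads, and Cxcl5 and Csf3, the gene of G-CSF, were listed at 0 in both libraries.

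Of 11 listed relatives of the 10 genes, 3 were higher in lung, 3 were lower and 5 were listed at 0 in both. Trf, the gene of transferrin and a relative of Ltf, was listed at 82.0 FPKM in spleen and 253 in lung, so it did not share the zero of Ltf. Lpo, the lactoperoxidase gene and a relative of Mpo, was listed at 0.106 FPKM in spleen and 0 in lung.

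Markers of the labelled cells and of other cells were read beside these values. The splenic and lung levels were 195 and 179 FPKM for Cd4, 513 and 369 for Cd3e, and 18.7 and 41.8 for Foxp3, so the markers of the sorted population were present in both libraries. The 9 listed T cell genes, led by Cd3g, Cd2 and Lck, summed to 4280 FPKM in spleen and 4131 in lung, and 0 of them passed 2-fold. The 8 Treg genes, led by Tnfrsf18, Ctla4 and Izumo1r, summed to 1460 and 2034 FPKM, and of them Foxp3 and Ctla4 (221 and 601 FPKM) were over 2-fold higher and Lrrc32 (69.4 and 30.4 FPKM) over 2-fold lower in lung. All 12 macrophage genes were higher in lung, where they summed to 27470 FPKM against 688 in spleen, mostly through Lyz2 (376 and 24947 FPKM) and Chil3 (17.4 and 1161 FPKM). C1qb, Ear2 and Cd68 were also over 2-fold higher. For Csf1r and Mrc1, with log2 ratios of 0.19 and 0.30, the direction depended on the scaling. Monocyte genes were higher in 5 of 6 cases, Ccr2 (7.96 and 72.5 FPKM), Ly6c2 and Plac8 among them, with sums of 90.3 and 321 FPKM. Csf1r stands in both the receptor and the macrophage list, and Itgam in both the granule and the monocyte list. Lists in which most genes were listed over 2-fold lower in lung, as for the 5 granule genes, were those of red cells, B cells, and eosinophils, basophils and mast cells. In the T cell list 6 of 9 genes and in the Treg list 5 of 8 were also lower, mostly by less than 2-fold. All 7 erythroid genes listed were lower in lung, with sums of 34.5 and 1.48 FPKM, among them Hba-a1 (14.6 FPKM and 0) and the erythroid factor Klf1 (1.24 FPKM and 0). Hbb-b1, Hbb-bs and Hba-a2 were also lower, though near-identical globin copies make single globin rows uncertain. All 8 B cell genes were lower in lung, with sums of 271 and 134 FPKM, led by Cd79b, Cd79a and Ms4a1, and Pax5, Fcer2a and Blk were among the 6 that were over 2-fold lower. Of 10 eosinophil, basophil and mast cell genes, 6 were listed over 2-fold lower, and 3 were at 0 in lung alone. Among these, only Ccr3 (10.6 and 0.554 FPKM) was past 2-fold over its whole counting interval (ratio 0.0315 to 0.0820). The upper limits of that ratio were 0.516 for Prg2, 0.748 for Ms4a2 and 0.821 for Cpa3. They were 1.33 for Prss34 and 2.13 for Tpsb2, so a drop past 2-fold was shown for Ccr3 alone. In the same list 1 gene, Siglecf, which alveolar macrophages also express, was over 2-fold higher in lung. Fcer1a was listed at 0.708 and 1.25 FPKM. The eosinophil peroxidase gene Epx and the basophil protease gene Mcpt8 were at 0 in both. The part of these cells in the values of the 10 genes was not tested.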

How the data were processed

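RNA of sorted GFP+CD4+ cells was made into SMART-Seq HT cDNA and Nextera XT libraries with single-end sequencing of 75 bases. Alignment to mm10 used TopHat 2.1.1 with Bowtie2 2.2.8 and SAMtools 0.1.18, and FPKM were calculated by the authors with Cuffdiff 2.2.1 and deposited. The annotation and any scaling between libraries are not given in the sources used here. The cells of 3 mice were pooled in each library. Spleen and lung were assigned from the labels.

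Ratios are lung over spleen, after raising FPKM under 0.1 to 0.1. Lengths of GENCODE M21 transcripts tied to RefSeq were found for 23016 symbols. Effective lengths used a fragment mean of 200, an SD of 80 and a shortest fragment of 73, the last chosen from the values. The product of FPKM and effective length that most genes shared was taken as 1 read. At 1 kb, 1 read was worth 0.0964 FPKM in spleen and 0.0849 in lung, which gave about 9640000 and 12630000 reads. Among single-transcript genes with 1 to 10 reads, 73.1% and 75.5% came within 0.1 of a whole number. Read numbers are therefore approximate.

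The 10 genes, the 13 lists of other genes and the motifs were chosen with earlier results of these data known. The motifs were picked after the windows had been searched with several strings. All 10 genes were named, and from each list up to 3 of the most abundant genes, up to 4 of those with the most extreme ratio past 2-fold on at least 10 estimated reads, and a few further genes for contrast. The steps were tested on simulated data in which only genes with many expected reads were changed, so changes of genes with few reads were not covered. No test was possible with 1 library per tissue. Calculations used Python 3.11.15 with scipy 1.17.1, pandas 2.3.3 and numpy 2.4.6, and plots matplotlib 3.10.9.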

Additional observations from a re-analysis of the deposited data

How the results depend on the processing

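Across 10 other settings, 99 of 100 log2 ratios of single genes kept their direction, and the exception was Lcn2 under TPM (-0.06). Most of these could not have changed. The 5 genes at 0 in lung stay lower there under every setting used. The other 5 genes are above 1 FPKM in both libraries, so floors, pseudocounts and filters cannot reverse them. Only the changes of scaling could have reversed those 5 genes. Counts of genes higher in lung and of genes over 2-fold or 20-fold higher moved by no more than 1.5 times. With a floor of 1 FPKM, 3 genes were over 2-fold lower in lung in place of 5, because Elane and Mpo lie under 2 FPKM. With a floor of 0.01 FPKM or after rescaling to TPM, 5 genes were over 20-fold lower in place of 3, since the folds of Elane and Mpo rest on the floor. The median log2 ratio was -3.54 with a floor of 0.01 FPKM, -0.22 with a floor of 1 FPKM, -0.56 with a pseudocount of 1 FPKM and -1.02 with at least 3 estimated reads in each library, against -1.88, as 5 of the 10 genes are listed at 0 in lung. No replicate could be left out. No paired analysis was possible because each tissue has 1 library. About 14.2 reads of Elane in spleen limit its difference.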
